A study of Mus musculus with 12 samples.

Results

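The genes described here are 5 forkhead transcription factors, Foxa1, Foxp3, Foxp1, Foxo1 and Foxo3, followed across 4 mouse cell types. They were taken as every probe set, the group of short probes that reads 1 transcript, that the array annotation assigns to 1 of these symbols alone. This gave 17 of the 45037 probe sets on the array, 1 for Foxa1, 1 for Foxp3, 8 for Foxp1, 4 for Foxo1 and 3 for Foxo3, among 18193 genes with a probe set of their own. A further probe set that maps both to Foxo3 and to Gm38485 was not used.

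RNA of 12 samples, 3 per cell type, had been measured on Affymetrix Mouse430_2 arrays, and all mice had the strain background C57BL/10.RIII. The study concerns experimental autoimmune encephalomyelitis, a mouse model of multiple sclerosis, and regulatory T cells named for FoxA1. Encephalitogenic T cells (EncT), which can transfer the disease, carry the label CD4+. The group Treg holds regulatory T cells given as CD4+ and TGFbeta+. The 2 FoxA1 groups were both labelled CD4hi and PD-L1hi. In the first, nFoxA1Treg, the cells are called neuron induced in the titles and natural in the cell type field. In the second, iFoxA1Treg, they are described as induced with IFN-beta. No genotype, age, dose or time is given in the labels used here, and no group is called untreated. Whether the 3 arrays of a group stand for different mice or cultures is not stated, so the p-values rest on a spread between arrays that may be technical.

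Forkhead proteins share a winged-helix domain that binds DNA at variants of the core motif TGTTTAC or TGTTTAT. FoxA proteins open chromatin in liver and other endodermal tissues, Foxp3 is the lineage factor of regulatory T cells, and Foxp1 helps to keep naive T cells quiescent. FoxO proteins drive genes of quiescence, survival and lymphocyte homing until AKT phosphorylates them and they leave the nucleus, a step that RNA levels do not show.

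The 5 genes lie on chr12:57540628-57548029 (Foxa1), chrX:7579676-7595243 (Foxp3), chr6:98925342-99522746 (Foxp1), chr3:52268337-52350109 (Foxo1) and chr10:42181845-42276695 (Foxo3) in the RefSeq annotation of GRCm38.p6. The 250 bases before each RefSeq start site were searched on both strands for the 7-letter motifs TGTTTAC and TGTTTAT, whose reverse complements are GTAAACA and ATAAACA. Of 32851 promoter windows of this length, 3.17% held TGTTTAC, 4.16% held TGTTTAT and 7.1% held either. Among the genes described here, 4 windows of Foxa1, Foxp3 and Foxp1 held a match. They are shown because forkhead genes can be bound by forkhead proteins, 5′ to 3′ on the strand of the gene, with the match in capitals.
Foxa1, start 1: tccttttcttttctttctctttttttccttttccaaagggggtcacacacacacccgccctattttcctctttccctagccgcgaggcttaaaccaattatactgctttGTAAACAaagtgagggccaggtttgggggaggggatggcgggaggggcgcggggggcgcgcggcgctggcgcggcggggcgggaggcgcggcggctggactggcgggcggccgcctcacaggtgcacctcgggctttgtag
Foxp3, start 1: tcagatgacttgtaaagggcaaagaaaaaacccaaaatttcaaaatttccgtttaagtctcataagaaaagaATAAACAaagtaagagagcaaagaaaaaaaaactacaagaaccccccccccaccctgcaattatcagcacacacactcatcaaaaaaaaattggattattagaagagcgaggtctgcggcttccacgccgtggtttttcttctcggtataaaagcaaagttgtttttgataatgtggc
Foxp1, start 1: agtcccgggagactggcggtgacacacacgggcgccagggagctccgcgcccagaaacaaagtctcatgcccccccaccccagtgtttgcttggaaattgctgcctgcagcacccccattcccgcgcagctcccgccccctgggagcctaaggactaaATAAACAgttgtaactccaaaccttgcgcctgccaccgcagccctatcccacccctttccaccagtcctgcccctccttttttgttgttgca
Foxp1, start 2: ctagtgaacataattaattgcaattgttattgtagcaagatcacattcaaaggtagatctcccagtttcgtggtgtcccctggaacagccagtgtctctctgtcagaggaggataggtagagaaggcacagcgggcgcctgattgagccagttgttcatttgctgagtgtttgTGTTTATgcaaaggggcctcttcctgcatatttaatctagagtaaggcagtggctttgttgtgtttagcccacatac
The Foxa1 window, chr12:57546112-57546361 on the minus strand, held TGTTTAC on the opposite strand, 141 to 135 bases before the start. That start lies inside the annotated span of the gene, as do both Foxp1 starts shown. The Foxp3 window, chrX:7579426-7579675 on the plus strand, held TGTTTAT on the opposite strand, 178 to 172 bases before the start. The first Foxp1 window, chr6:99520994-99521243 on the minus strand, held it on the opposite strand, 92 to 86 bases before the start. The second, chr6:99266516-99266765 on the minus strand, held it on the strand of the gene, 77 to 71 bases before the start. The windows of Foxo1 and Foxo3, the second of Foxp3 and the third of Foxp1 held neither motif. A match describes the letters of the window and shows no binding.

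The arrays labelled iFoxA1Treg went against the CD4hi part of their label, and each comparison with them is given with this in view. Cd4 had a level of 5.13 ± 0.06 (SD, n = 3) there, against means of 10.41 to 10.59 in the other groups. Levels are log2 of the value plus 16, quantile normalized, so that 4 is the lowest possible level. Cd274, the gene of PD-L1, stood at 10.03 ± 0.04 in these arrays against means of 7.44 to 7.75 elsewhere, the direction of their label PD-L1hi. All 13 T cell markers were lower than in EncT, and their summed linear value was 6355 to 6458 per array against 25708 to 29313 in the other 9 arrays. All 11 B cell markers were higher, with sums of 32791 to 35708 against 203 to 457, and 15 of 16 macrophage markers were higher, with sums of 33586 to 34351 against 176 to 403. Of all genes, 29.5% were higher and 29.0% lower than in EncT at an adjusted p under 0.05 by limma. Xist was at 4.37 and the Y-linked Eif2s3y at 9.68, against means of 11.08 to 11.53 and 4.19 to 4.41 elsewhere, so that these arrays also differed from the rest in the sex of the cells. Their correlation with arrays of other groups was 0.861 to 0.880, while the other 3 groups correlated at 0.983 to 0.995 with each other. Cell content, sex and treatment cannot be told apart in these 3 arrays. In bulk samples, fewer cells of a type and less RNA per cell cannot be told apart either.

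Foxa1, the factor for which 2 of the groups are named, was near the bottom of the scale in every group. Its single probe set, 1418496_at, had deposited log2 values of -7.53, -8.51 and -0.31 in EncT, 2.02, 2.39 and 2.57 in nFoxA1Treg, and 2.91, 1.08 and 2.29 in Treg. In the arrays labelled iFoxA1Treg it read 1.69, -3.93 and 2.04. All 3 EncT arrays lay below all nFoxA1Treg and Treg arrays, 1 iFoxA1Treg array lay among the EncT values, and nFoxA1Treg and Treg overlapped.

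On the level scale the Foxa1 means were 4.02 ± 0.04 in EncT, then 4.23 ± 0.17 in iFoxA1Treg, 4.35 ± 0.19 in Treg and 4.39 ± 0.06 in nFoxA1Treg (SD, n = 3 arrays each). No 2 neighbours in this order passed the test. The outer pair did: nFoxA1Treg exceeded EncT by 0.37 (SE 0.11, 95% interval 0.14 to 0.60), a 1.29-fold difference on this scale, with an adjusted p of 0.0417 by limma with Benjamini-Hochberg adjustment over all probe sets. In that comparison 10.0% of all probe sets passed in either direction and 4.90% were higher. Folds on this scale understate changes of dim probe sets, and with EncT at the floor the true ratio was not measured.

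The Foxa1 call was not stable. It was kept in 13 of 22 alternative analyses, with adjusted p-values from 0.0266 to 0.113. Leaving out any EncT replicate (0.112, 0.0802 and 0.0709 without replicates 1, 2 and 3) or any nFoxA1Treg replicate (0.0720, 0.112 and 0.113) ended it by limma, as did leaving out Treg replicate 3 (0.0565) or iFoxA1Treg replicate 1 (0.0533). Treg exceeded EncT by 0.33 (SE 0.11) with an adjusted p of 0.0774 by limma. This passed with no offset added, at 0.0375, and without Treg replicate 2, at 0.0420. nFoxA1Treg and Treg differed by 0.041 (95% interval -0.19 to 0.27, adjusted p = 0.999 by limma), an interval that leaves room for a difference of either sign. The arrays labelled iFoxA1Treg differed from EncT by 0.20 (adjusted p = 0.133 by limma, 0.0425 without iFoxA1Treg replicate 2 and 0.0154 with no offset).

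Probe sets of Y-linked genes, in the arrays with high Xist, and of genes of other organs gave a background range. In the 9 arrays with high Xist, 3 Y-linked genes had deposited log2 values that reached 3.45 in EncT, 2.43 in nFoxA1Treg and 2.69 in Treg. The 11 genes of other organs, such as Gcg, which encodes glucagon, and Myh6, a heart myosin, had medians of 3.68 to 4.17 in the 4 groups. Their highest values were 5.95 to 6.05. These are other probe sets with their own binding strength, so they show how far such genes ranged on these arrays and give no order of levels.

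**Figure D1:**
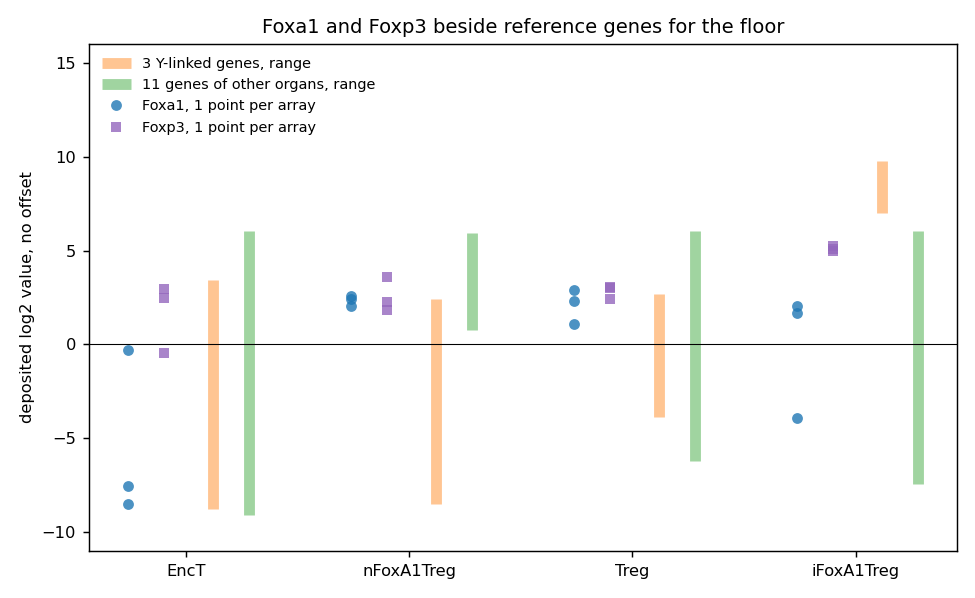
Deposited log2 value of Foxa1 (circles) and Foxp3 (squares) in each of the 3 arrays of the 4 groups. Bars give the lowest to the highest value of 3 Y-linked genes and of 11 genes of other organs in the same arrays; the Y-linked genes stand high only in the arrays labelled iFoxA1Treg, and Foxa1 in EncT runs down to -8.51.

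Genes with known Foxa sites in liver and epithelium, together with Foxa cofactors, were read as a list of their own. Of 28 on the array, 1 was higher and 1 lower in nFoxA1Treg than in EncT, with a median difference of -0.014 against -0.00012 over all genes. Each gene is read here by its brightest probe set, and 11.6% of all genes passed there, 4.86% higher and 6.70% lower. The gene that rose was Afp, the fetal serum protein alpha-fetoprotein, at 6.79 ± 0.04 against 6.23 ± 0.41 (difference 0.56, adjusted p = 0.0236 by limma). The gene that fell was Cd274, which encodes PD-L1, by 0.26 (adjusted p = 0.0464 by limma), while nFoxA1Treg carries the label PD-L1hi. EncT and nFoxA1Treg overlapped for Cd274, and without the arrays labelled iFoxA1Treg no gene of the list was called lower. Treg against EncT gave 2 higher and 1 lower, where 9.40% of all genes passed, 3.51% higher and 5.90% lower, and 1 and 0 without the arrays labelled iFoxA1Treg. Ttr, the thyroxine carrier transthyretin and a classical Foxa target, stood at 8.20 ± 0.33 in Treg and 4.45 ± 0.10 in EncT (difference 3.76, adjusted p = 1.94e-09 by limma), and at 4.52 ± 0.13 in nFoxA1Treg. It was the 1 gene of the list that passed between nFoxA1Treg and Treg, where 0.0220% of all genes did, all of them lower.

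Foxp3, which defines regulatory T cells, was also near the floor in the groups with high T cell markers. Its probe set 1420765_a_at had deposited log2 values of 2.97, 2.48 and -0.46 in EncT, 3.61, 2.28 and 1.84 in nFoxA1Treg, and 3.05, 2.43 and 3.03 in Treg. The arrays labelled iFoxA1Treg read 4.96, 5.24 and 5.09. These lay above the Foxp3 value of every other array, while the values of the first 3 groups overlapped. They still lay within the range of the genes of other organs, which reached 6.03 in the arrays labelled iFoxA1Treg.

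For Foxp3, EncT had a mean level of 4.36 ± 0.26, nFoxA1Treg 4.49 ± 0.28, Treg 4.52 ± 0.11 and iFoxA1Treg 5.74 ± 0.12 (SD, n = 3 arrays each). The first 3 did not differ beyond their spread. nFoxA1Treg minus EncT was 0.13 (95% interval -0.19 to 0.46, adjusted p = 0.698 by limma), and Treg minus EncT was 0.16 (95% interval -0.16 to 0.48, adjusted p = 0.626 by limma). nFoxA1Treg minus Treg was -0.027 (95% interval -0.35 to 0.29, adjusted p = 0.999 by limma). These intervals are not adjusted for the number of probe sets. With 3 arrays per group, Foxp3 differences beyond their bounds could also have gone uncalled. The sizes depend on the offset: with none, nFoxA1Treg and Treg exceeded EncT by 0.89 and 1.10 (adjusted p = 0.601 and 0.493 by limma).

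Against the arrays labelled iFoxA1Treg, Foxp3 differed from each other group. It was higher there by 1.38 than in EncT (SE 0.15, adjusted p = 8.6e-07 by limma), by 1.22 than in Treg and by 1.25 than in nFoxA1Treg. With the other groups near the floor the size was set by the offset: against EncT it ran from 0.56 with an offset of 64 to 3.56 with none. These calls held in all 21 alternatives that kept the probe set. In iFoxA1Treg against EncT, 53.4% of all probe sets passed in either direction and 25.3% were higher. Of the 11 genes of other organs, 2 were higher and 2 lower in the arrays labelled iFoxA1Treg than in EncT. T cell markers were low in the same arrays and B cell and macrophage markers high, and their part in the Foxp3 difference was not tested.

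Genes tied to Foxp3 in regulatory T cells were counted in the same groups. Of 28 on the array, 1 was higher and 6 were lower in nFoxA1Treg than in EncT (median -0.15), where 4.86% of all genes were higher and 6.70% lower. In Treg 1 was higher and 2 were lower (median -0.087), where 3.51% and 5.90% of all genes were, so that the Treg counts were near the background. The gene that rose in both was Ctla4, an inhibitory receptor that Foxp3 is known to sustain. It stood at 9.98 ± 0.18 in EncT, 10.83 ± 0.08 in nFoxA1Treg and 10.63 ± 0.03 in Treg, a difference of 0.85 (adjusted p = 5.08e-06 by limma) and 0.65 (adjusted p = 7.44e-05). Those that fell with the smallest adjusted p were Ebi3, a subunit of the cytokines IL-27 and IL-35, by 0.58 and 0.55, and Cd83, an activation marker, by 1.02 and 0.74. With Foxp3 itself higher in the arrays labelled iFoxA1Treg, 12 of the 28 were higher and 13 lower than in EncT, with a median of -0.44, where 58.5% of all genes passed. Those with the smallest adjusted p all fell. They were Socs2, a brake on cytokine signalling, by 3.10, Il2rb, the beta chain of the IL-2 receptor, by 2.55, and Ctla4 by 2.24.

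Among 35 inducers and partners of Foxp3, 3 were higher and 5 lower in nFoxA1Treg than in EncT, and 2 were higher and 5 lower in Treg. These are 8 and 7 genes, where 11.6% and 9.40% of all genes passed. Without the arrays labelled iFoxA1Treg the counts were 3 and 4 in nFoxA1Treg and 1 and 5 in Treg. Uhrf1, which maintains DNA methylation, was higher in both, by 0.46 (adjusted p = 0.000902 by limma) and 0.44 (adjusted p = 0.00157). Stat3, which carries IL-6 and IL-10 signals, fell by 0.35 in nFoxA1Treg, and Tgfbr2, the TGF-beta receptor chain, by 0.29. In Treg, Hdac7, a histone deacetylase, fell by 0.55 and Runx1, a partner of Foxp3 on DNA, by 0.50. The counts for nFoxA1Treg against Treg were 0 in both directions for this list and for the Foxp3-associated genes.

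Foxp1, which restrains the activation of naive T cells, passed the test against the arrays labelled iFoxA1Treg and in no comparison among the other 3 groups. The brightest of its 8 probe sets, 1435222_at, had levels of 7.84, 7.66 and 7.73 in EncT, 7.72, 7.68 and 7.65 in nFoxA1Treg, and 7.92, 7.67 and 7.68 in Treg. It reached 10.40, 10.37 and 10.39 in the arrays labelled iFoxA1Treg. The first 3 groups overlapped, and the iFoxA1Treg arrays lay far above all of them.

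For 1435222_at the difference from EncT was 2.64 (SE 0.07, 6.25-fold, adjusted p = 4.42e-14 by limma). Over the 8 probe sets the difference ran from 0.42 to 3.07 with a median of 2.68. Against EncT 8 of 8 passed, where 53.4% of all probe sets did and 25.3% were higher. Against Treg 7 of 8 passed, where 54.3% of all probe sets did and 25.7% were higher. Against nFoxA1Treg 8 of 8 passed, where 54.8% did and 25.6% were higher. Without normalization between arrays 1443258_at did not pass there (0.22, adjusted p = 0.0921 by limma). The exception was 1443258_at, at 0.13 (95% interval -0.10 to 0.35) against Treg. The probe sets of this 1 gene differed widely in the size of the difference, and 6 of them showed 5.11-fold or more against EncT.

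Among EncT, nFoxA1Treg and Treg no Foxp1 probe set passed. The differences ran from -0.12 to 0.24 for nFoxA1Treg minus EncT and from -0.14 to 0.30 for Treg minus EncT. The widest was that of 1443258_at, which stood at 5.36, 5.71 and 5.57 in EncT, 5.62, 5.62 and 5.61 in nFoxA1Treg, and 5.92, 5.71 and 5.89 in Treg. Its 3 Treg arrays lay above all EncT and nFoxA1Treg arrays, the lowest only just above EncT replicate 2, with an adjusted p of 0.103 against EncT by limma (0.0376 without EncT replicate 2). No other Foxp1 probe set came under 0.05 in any alternative for these 3 groups.

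**Figure D2:**
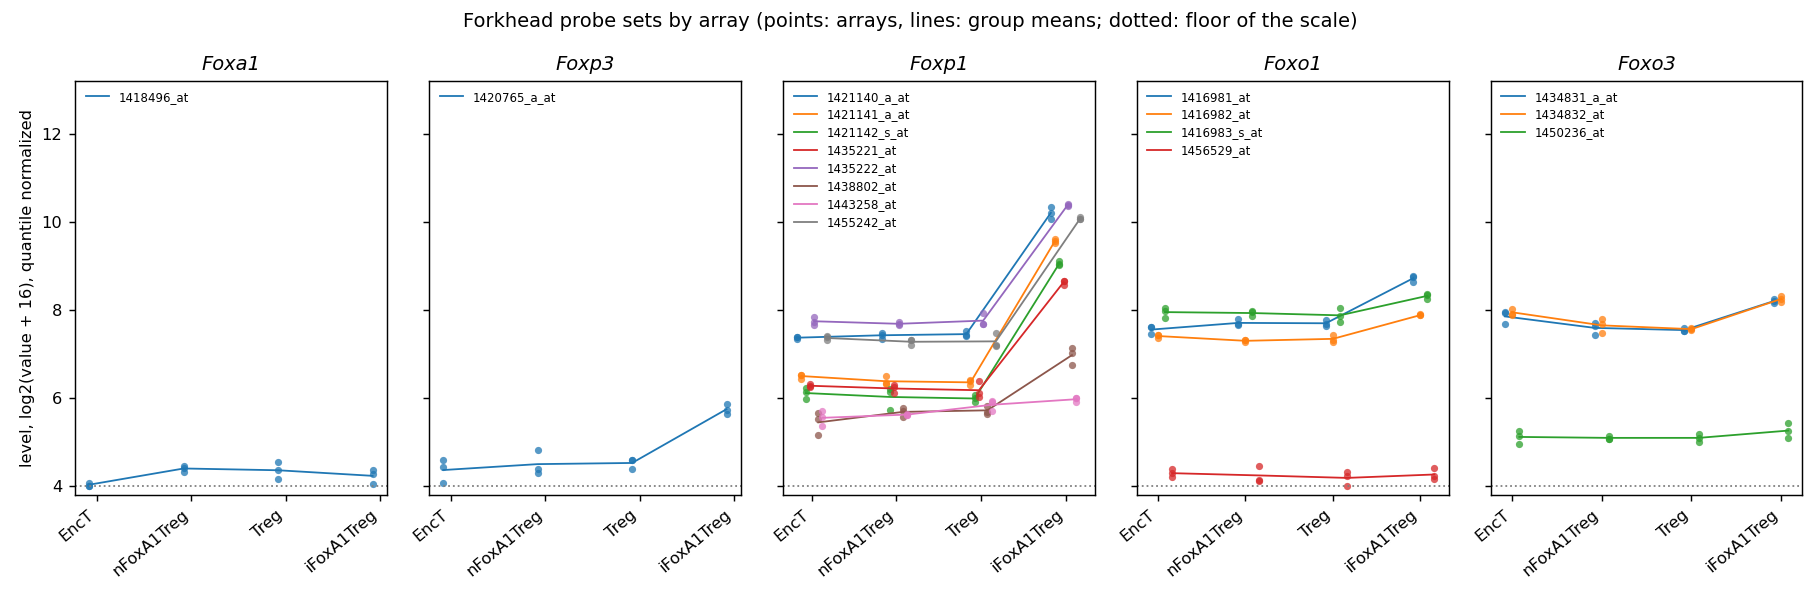
Level, log2(value + 16) after quantile normalization, of each forkhead probe set in the 12 arrays, with 1 colour per probe set, points for arrays and lines through the group means. Foxp1 stands apart in the arrays labelled iFoxA1Treg, with 10.37 to 10.40 for its brightest probe set, while Foxa1 stays near the floor of 4 in all groups.

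Of 16 T cell quiescence and follicular helper genes that have been linked to Foxp1, 2 were higher and 6 lower in nFoxA1Treg than in EncT (median -0.20), and likewise 2 and 6 in Treg (median -0.19), where 11.6% and 9.40% of all genes passed in either direction. Besides Ctla4 and Il7r, those named by smallest adjusted p were Tob1, an antiproliferative factor, which fell by 0.63 and 0.54, and Bcl6, the factor of follicular helper cells, which fell by 0.61 in Treg. Against EncT, 8 were higher and 8 lower in the arrays labelled iFoxA1Treg, where 29.5% and 29.0% of all genes were. Cxcr5, the homing receptor of B cells and follicular helper cells, was at 9.20 there and 4.80 in EncT.

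Foxo1, which maintains naive T cell homing and survival genes, showed a smaller difference, and its size depended on the probe set. Probe set 1416981_at had levels of 7.44, 7.60 and 7.61 in EncT, 7.65, 7.67 and 7.79 in nFoxA1Treg, 7.64, 7.67 and 7.77 in Treg, and 8.75, 8.63 and 8.78 in the arrays labelled iFoxA1Treg. Its brightest probe set, 1416983_s_at, had 7.82, 8.04 and 7.98, then 7.95, 7.96 and 7.87, then 8.04, 7.73 and 7.86, and 8.26, 8.36 and 8.33 in the same order. In both, the iFoxA1Treg arrays lay above all others. In 1416981_at the EncT arrays lay just below the nFoxA1Treg and Treg arrays, and in 1416983_s_at the 3 groups overlapped.

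Against EncT the arrays labelled iFoxA1Treg were higher by 1.17 (2.25-fold, adjusted p = 1.25e-09 by limma) in 1416981_at, by 0.48 in 1416982_at and by 0.37 in 1416983_s_at. The last of these did not pass without normalization between arrays (0.20, adjusted p = 0.0643 by limma). The fourth, 1456529_at, had mean levels of 4.18 to 4.29, close to the floor, and differed by -0.030 (adjusted p = 0.852). Among the other 3 groups no Foxo1 probe set passed. For 1416981_at, nFoxA1Treg minus EncT was 0.15 (95% interval -0.0062 to 0.31, adjusted p = 0.251 by limma) and Treg minus EncT was 0.14 (95% interval -0.015 to 0.30, adjusted p = 0.297).

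Foxo3, which shares many targets with Foxo1, was the 1 member that passed against EncT both in nFoxA1Treg and in Treg, and it was lower in both. Probe set 1434832_at had levels of 7.92, 7.89 and 8.02 in EncT, 7.80, 7.68 and 7.46 in nFoxA1Treg, 7.58, 7.53 and 7.57 in Treg, and 8.31, 8.25 and 8.18 in the arrays labelled iFoxA1Treg. EncT lay above every nFoxA1Treg and Treg array and below every iFoxA1Treg array, while nFoxA1Treg and Treg overlapped. The order of the means was Treg at 7.56 ± 0.03, nFoxA1Treg at 7.65 ± 0.17, EncT at 7.94 ± 0.07 and iFoxA1Treg at 8.25 ± 0.06 (SD, n = 3 arrays each). The lowest pair did not differ beyond its spread (0.086, 95% interval -0.089 to 0.26, adjusted p = 0.999 by limma).

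Treg fell below EncT in 1434832_at by 0.38 on the log2 scale (SE 0.08, 1.30-fold lower, adjusted p = 0.00875 by limma). This call held in all 24 alternatives, with adjusted p-values from 0.00126 to 0.0437. In Treg against EncT 8.43% of all probe sets passed, 3.93% higher and 4.50% lower. nFoxA1Treg fell below EncT by 0.30 (SE 0.08, 1.23-fold lower, adjusted p = 0.0313 by limma), where 5.10% of all probe sets were lower. That call was kept in 18 of 24 alternatives. It was lost without EncT replicate 3 (0.113), nFoxA1Treg replicate 2 (0.0745) or nFoxA1Treg replicate 3 (0.121), and without the arrays labelled iFoxA1Treg (0.0576).

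The second bright Foxo3 probe set, 1434831_a_at, had levels of 7.95, 7.67 and 7.93 in EncT, 7.69, 7.64 and 7.43 in nFoxA1Treg and 7.58, 7.52 and 7.51 in Treg. EncT replicate 2 lay among the nFoxA1Treg arrays, and all EncT arrays lay above all Treg arrays. Treg fell below EncT by 0.31 (adjusted p = 0.0365 by limma). The call was lost without EncT replicate 1 (0.114) or 3 (0.129), without Treg replicate 1 (0.0696), 2 (0.116) or 3 (0.118), and without nFoxA1Treg replicate 2 (0.0503), iFoxA1Treg replicate 2 (0.0523) or all 3 arrays labelled iFoxA1Treg (0.0712). For nFoxA1Treg the difference was -0.26 (adjusted p = 0.0718 by limma), and without EncT replicate 2 it was -0.35 (adjusted p = 0.00857). The third, 1450236_at, was dim, with group means of 5.09 to 5.25, and passed in no comparison.

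In the arrays labelled iFoxA1Treg, Foxo3 exceeded EncT by 0.30 in 1434832_at (adjusted p = 0.00533 by limma) and by 0.35 in 1434831_a_at (adjusted p = 0.00278). Neither passed when the arrays were not normalized against each other (0.13 and 0.18, adjusted p = 0.260 and 0.131 by limma), and 1434832_at did not pass with arrays centred on their medians (0.22, adjusted p = 0.0561). Against Treg the differences were larger, at 0.69 and 0.66, and passed in all 23 and 22 alternatives that kept them. Markers of macrophages were lower than in EncT for 7 of 16 in nFoxA1Treg and 6 of 16 in Treg, with none higher. With no offset these counts were 5 and 3. Of all genes 6.70% and 5.90% were lower in these comparisons, a share that applies to the marker lists below too. The summed linear value of the macrophage markers per array was 351 to 403 in EncT, 176 to 215 in nFoxA1Treg and 215 to 225 in Treg. No Foxo3 probe set passed between nFoxA1Treg and Treg, so their order is not read against these sums. Of the defining markers, Lyz2 had mean levels of 5.73, 4.22 and 4.50 in EncT, nFoxA1Treg and Treg. Csf1r had 5.25, 4.56 and 4.79 in the same order, and the dimmest markers were at the floor in all 3. Dendritic cell and MHC class II markers were lower in nFoxA1Treg for 5 of 11 and in Treg for 2 of 11, with sums of 657 to 802 in EncT, 138 to 341 in nFoxA1Treg and 361 to 470 in Treg, and with no offset 4 and 0 were lower. B cell markers were lower for 3 and 1 of 11, with sums of 388 to 457 in EncT, 203 to 250 in nFoxA1Treg and 259 to 290 in Treg. CD8 T and NK cell markers were lower for 1 of 7 in each, with sums of 605 to 837, 429 to 494 and 443 to 470. Counts of 1 are near the share of all genes. The brightest single value in EncT was 560 among these markers and 277 among the B cell markers, a large part of those sums. Of 13 T cell markers, 3 were lower in both. Neuron markers were higher for 1 of 12 in each and lower for 0, with sums of 279 to 332, 312 to 361 and 348 to 363. Epithelium and liver markers were higher for 1 and 2 of 12 and lower for 0, with sums of 317 to 718, 395 to 609 and 762 to 918. With no offset the higher counts of these lists were 0 and 0, and 1 and 1. Of all genes 4.86% and 3.51% were higher in these comparisons. Ttr and Afp, among others, are also in the Foxa list above, so the epithelium and liver counts are no separate result. The brightest single value of that list was 370 in EncT and 361 in Treg, a large part of its sums. The part of any of these cell types in the Foxo3 difference was not tested.

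**Figure D3:**
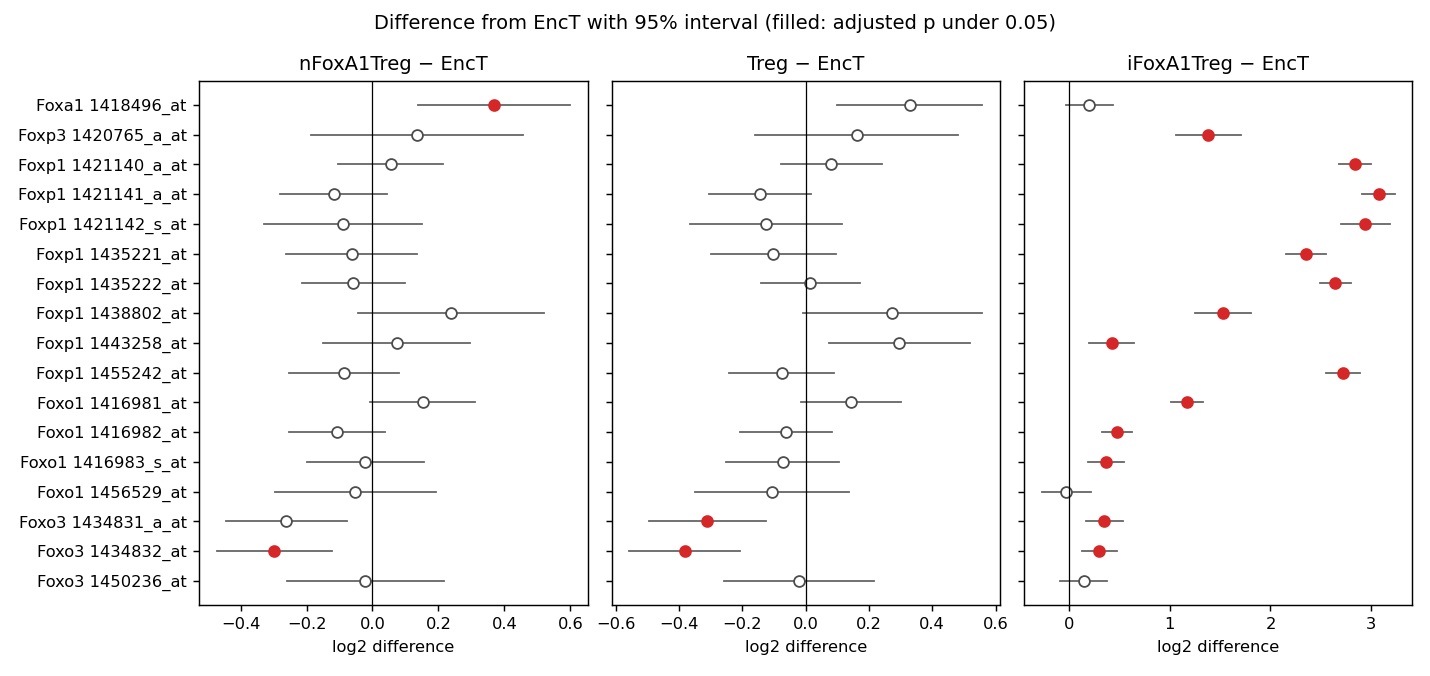
Log2 difference from EncT of the 17 forkhead probe sets in nFoxA1Treg, Treg and the arrays labelled iFoxA1Treg, with 95% intervals from the limma fit; filled points passed an adjusted p of 0.05. The 3 panels have different scales: filled points are Foxa1 and 1 Foxo3 probe set in the first, 2 Foxo3 probe sets in the second and 14 probe sets in the third.

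Over all 17 probe sets, 1 was higher and 1 lower in nFoxA1Treg than in EncT, 0 were higher and 2 lower in Treg than in EncT, and 0 passed in either direction between nFoxA1Treg and Treg. Of all probe sets 10.0%, 8.43% and 0.0155% passed in these comparisons, so that the members' counts were near the background. The values did not overlap between groups for 4, 7 and 1 of the 17 in these comparisons, against 24.5%, 24.4% and 10.8% of all probe sets. Of the 17, the arrays labelled iFoxA1Treg had 14 higher than EncT, 13 higher than Treg and 14 higher than nFoxA1Treg, and none lower, where 25.3%, 25.7% and 25.6% of all probe sets were higher. The same 14, 13 and 14 did not overlap, against 58.0%, 61.1% and 61.3% of all probe sets. Of these, 8, 7 and 8 were probe sets of Foxp1 alone, so the counts do not stand for separate genes.

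Target genes of FoxO factors were more often lower than higher in both regulatory groups than in EncT. Of 29 on the array, 2 were higher and 13 lower in nFoxA1Treg, with a median of -0.33, and 2 were higher and 12 lower in Treg, with a median of -0.27. Of all genes, 4.86% were higher and 6.70% lower in nFoxA1Treg, and 3.51% and 5.90% in Treg, with medians of -0.00012 and -0.0015. Without the arrays labelled iFoxA1Treg, an alternative chosen after the data were seen, the counts were 2 and 10 in both. No gene of the list passed between nFoxA1Treg and Treg, where the median was -0.056. Both comparisons share the EncT arrays, and the macrophage, dendritic, B cell and CD8 T and NK cell marker sums that were lower beside Foxo3 stand beside this list too, with a part that was not tested.

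The gene with the smallest adjusted p rose in both. Irs2, which couples the insulin receptor to PI3K, stood at 5.51 ± 0.09 in EncT, 6.69 ± 0.13 in nFoxA1Treg and 6.61 ± 0.09 in Treg (SD, n = 3 arrays each), 2.27-fold and 2.14-fold above EncT (adjusted p = 4.08e-06 and 1.32e-05 by limma). In nFoxA1Treg the next were Il7r, the IL-7 receptor that Foxo1 drives in naive T cells, which fell by 0.79 (adjusted p = 1.36e-05), and Ccng2, the cell cycle inhibitor cyclin G2, which fell by 0.93 (adjusted p = 4.28e-05). In Treg they were Txnip, an inhibitor of glucose uptake, which fell by 0.55 (adjusted p = 0.000183), and Cited2, a partner of the coactivators CBP and p300, which fell by 0.99 (adjusted p = 0.000208). Foxo1 itself did not pass in either comparison.

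In the arrays labelled iFoxA1Treg 16 of the 29 FoxO targets were higher and 7 lower than in EncT (median 0.78), where 58.5% of all genes passed, 29.5% higher and 29.0% lower. Klf2, which controls lymphocyte exit and quiescence, was at 10.70 ± 0.08 there and 5.01 ± 0.10 in EncT, 51.6-fold higher on this scale (adjusted p = 8.07e-16 by limma). Rbl2, a pocket protein that holds cells out of the cycle, fell by 2.23, and Sod2, the mitochondrial superoxide dismutase, higher by 1.97. Of 25 FoxO targets with a promoter window, 4 (16%) held TGTTTAC or TGTTTAT, against 8.06% of 27025 genes. A gene was counted if any of its windows held a match. The difference in share rests on these 4 genes and was not tested.

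**Figure D4:**
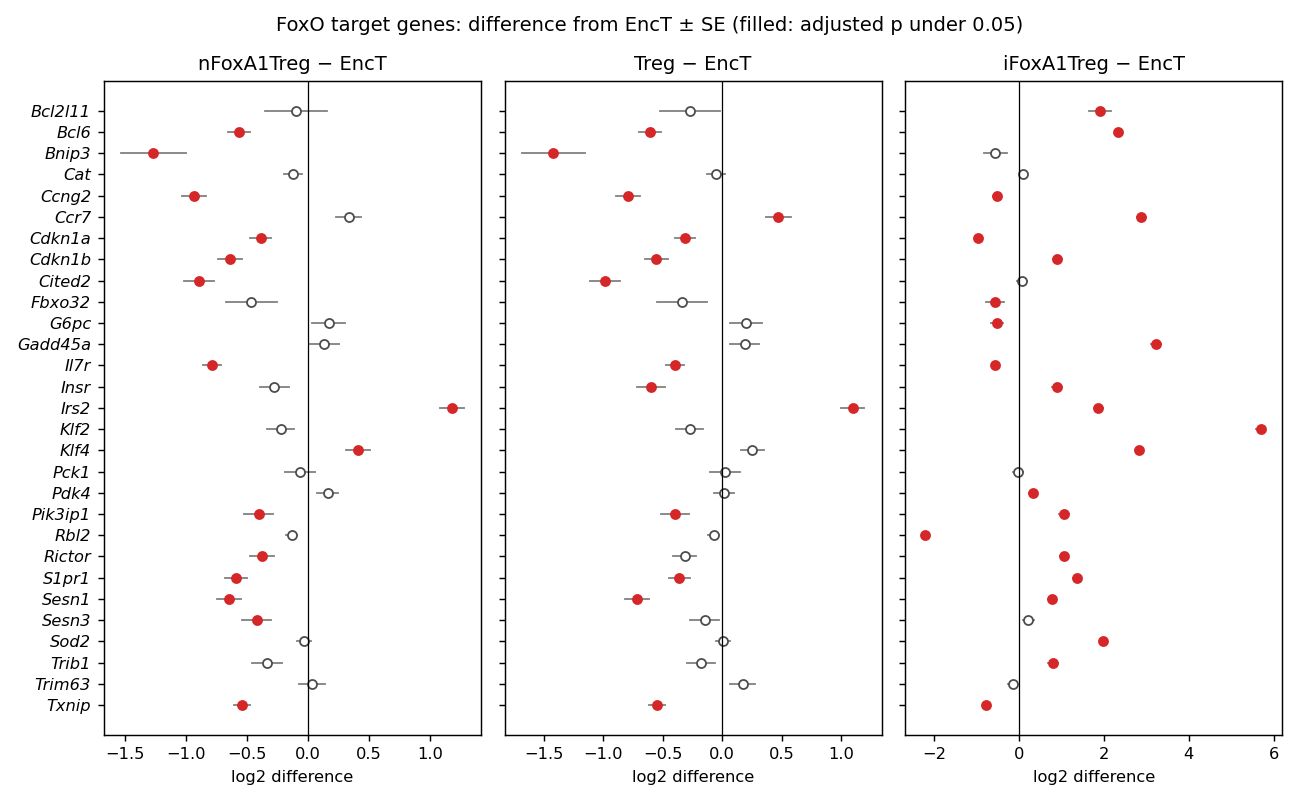
Log2 difference from EncT of 29 FoxO target genes, each by its brightest probe set, with bars of 1 SE; filled points passed an adjusted p of 0.05. In nFoxA1Treg and Treg 13 and 12 filled points lie below 0 and 2 lie above it in each; the third panel, the arrays labelled iFoxA1Treg, has a wider scale that reaches 5.69 for Klf2.

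The PI3K and AKT pathway and other regulators act on FoxO proteins after translation. Of 31 such genes on the array, 2 were higher and 5 lower in nFoxA1Treg than in EncT (median -0.057), and 0 were higher and 3 lower in Treg (median -0.022). Of all genes 11.6% and 9.40% passed in these comparisons, and the Treg count was near that share. Without the arrays labelled iFoxA1Treg the counts were 1 higher and 3 lower in nFoxA1Treg and 0 and 2 in Treg. Sgk1, a kinase that phosphorylates FoxO proteins, fell by 0.87 and 0.93 (adjusted p = 0.000922 and 0.00072 by limma). Ep300, the coactivator p300 that acetylates them, fell by 0.31 and 0.18. Pik3cd, the PI3K catalytic subunit of leukocytes, fell by 0.23 in Treg, and Prmt1, which methylates Foxo1, rose by 0.32 in nFoxA1Treg. Against EncT, 15 were higher and 11 lower in the arrays labelled iFoxA1Treg, where 58.5% of all genes passed. Ywhae and Ywhab, members of the YWHA adaptor family that hold FoxO in the cytoplasm, fell by 2.04 and fell by 0.94, and Akt1 fell by 1.62.

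The other members of the forkhead family were counted in the same way. Of 32 on the array, 0 were higher and 1 lower in nFoxA1Treg than in EncT, 0 and 1 in Treg than in EncT, and 0 in either direction between nFoxA1Treg and Treg. Of all genes 11.6%, 9.40% and 0.0220% passed in these comparisons. The gene that fell in both was Foxn3, a checkpoint repressor, from 7.96 ± 0.02 in EncT to 7.71 ± 0.08 and 7.66 ± 0.08 (adjusted p = 0.0243 and 0.00973 by limma). Without the arrays labelled iFoxA1Treg none of the list passed in nFoxA1Treg. Foxm1, which drives mitosis genes, differed by 0.37 in nFoxA1Treg (adjusted p = 0.051 by limma). Against EncT, 9 were higher and 9 lower in the arrays labelled iFoxA1Treg, where 29.5% and 29.0% of all genes were. Foxm1 fell by 2.18 and Foxd2 by 1.35, and Foxn3 rose by 0.96 to 8.92 ± 0.04.

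Genes with the profile most like each member over the 12 arrays were found by the root mean square difference of centred levels. For Foxp3 they were Il6ra (0.144), Ltbr (0.146) and Klf7 (0.156). For the brightest Foxp1 probe set they were Rab44 (0.0931), Lrg1 (0.0957) and Hmgn1 (0.105). For Foxo3 they were Cisd2 (0.0694), Clint1 (0.071) and Unc5cl (0.074). All 3 Foxo3 neighbours had their lowest mean in Treg and their highest in the arrays labelled iFoxA1Treg, as Foxo3 did. The search selects for such a likeness, so this order is no separate result. Foxa1 and the brightest Foxo1 probe set had group means that spanned only 0.37 and 0.44, under the 0.5 required for this search.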

How the data were processed

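The authors deposited 1 table of log2 values, 1 per probe set and array (45037 probe sets, 12 arrays). PLIER, which summarises the probes of a probe set, is named in the submitters' processing notes; its version, and any normalization between arrays by the authors, were not stated in those sources, and log base 2 was inferred from the range of the values. Medians per array lay between 4.64 and 4.84, and 3.85% to 5.65% of an array's values were negative. Scanner files were not used here.

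Of the probe sets, by the platform annotation, 34945 had 1 gene, 932 several and 9160 none. Values were returned to the linear scale, 16 was added, log2 was taken and arrays were quantile normalized, with no filter, because Foxa1 and Foxp3 lie near the floor. limma 3.58.1 in R 4.3.3 was fitted to all 12 arrays with a mean for each group, leaving 8 residual degrees of freedom, and eBayes used an intensity trend. Tests are two-sided and p-values Benjamini-Hochberg adjusted over all probe sets within a comparison, with 0.05 as the threshold. The fit was tested on simulated data. Precision is limited by the 3 arrays in each group. Sequences come from RefSeq tables of GRCm38.p6; protein sequences were not used here.

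The members, the gene lists and the tests were chosen with earlier results of these data known. Every member probe set is named. List genes stand by their brightest probe set, and those named have the 3 smallest adjusted p in a comparison; genes of like profile are the nearest 3. Replicate numbers did not pair the arrays: deviations from group means correlated at -0.161 to 0.165 for the same number. Alternatives changed the offset, filter, normalization, arrays, trend, array weights, replicate block and probe set rule, 1 at a time except where stated.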

Additional observations from a re-analysis of the deposited data

How the results depend on the processing

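Over the 17 forkhead probe sets and 6 comparisons, 2257 of 2295 alternative values kept their direction where called and their side of the threshold, 30 lost a call, 8 gained one and 0 reversed. Of the lost calls, 19 were in Foxo3, 9 in Foxa1, 1 in Foxo1 and 1 in Foxp1. Without an intensity trend, adjusted p-values by limma were 0.0511 for Foxa1 and 0.0594 for Foxo3 1434832_at in nFoxA1Treg against EncT, and 0.0664 for Foxo3 1434831_a_at in Treg against EncT. With only the 6 arrays of the groups compared, the Foxo3 values were 0.137 and 0.0976. The cause was not tested.

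Counts of called probe sets moved by over 1.5 times in these cases. With only the 6 arrays compared they were 1987 in nFoxA1Treg against EncT (4502 otherwise) and 2035 in Treg against EncT (3795), where fewer arrays entered the fit. Between nFoxA1Treg and Treg, with 7 called, array weights gave 26 and a filter to the upper 60% by mean gave 3. With 1 probe set per gene, no offset and that filter in 1 alternative, where fewer features were tested, the counts were 2474, 2084 and 1 in these 3 comparisons, and 9103, 9276 and 9383 for the arrays labelled iFoxA1Treg against EncT, Treg and nFoxA1Treg (24037, 24433 and 24685 otherwise).

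Leaving out 1 array at a time gave 2610 to 5570 in nFoxA1Treg against EncT, 1975 to 4987 in Treg against EncT and 5 to 41 in nFoxA1Treg against Treg. The arrays behind the lowest counts were nFoxA1Treg replicate 1 (2610) or 2 (2641) and Treg replicate 2 (1975) or 3 (2104), and 41 came without nFoxA1Treg replicate 3. For the arrays labelled iFoxA1Treg the ranges were 22112 to 24030, 22402 to 24868 and 22606 to 25115. With the replicate number as a block the counts were 4350, 3647, 6, 23869, 24261 and 24510, and the best match of an array in another group had its own number in 15 of 36 cases.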
